A study of Mus musculus with 12 samples.

Results

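The HOX genes were followed in cultured lung mesenchymal cells in which Klf4, a zinc finger transcription factor, was silenced. They were taken as every row whose symbol is Hoxa, Hoxb, Hoxc or Hoxd with a number, which gave 39 of 52636 genes in the tables. RNA-seq of whole cultures gave 12 libraries in 4 groups of 3. The SMCs were smooth muscle cells of C57BL/6 mice from a commercial source, called airway SMCs in the sample titles and tracheal in the source label. The PDGFR-β+ cells came from lungs of 12 week old C57BL/6 mice. The study's methods describe them as ZsGreen-positive cells sorted from tamoxifen-induced Pdgfrb-CreERT2, ROSA26R(Zs/+) mice, so the Pdgfrb promoter chose them. Each cell type was given scrambled RNA (Scr) or a small interfering RNA against Klf4 (siKlf4), both at 50 nM for 6 h and followed by 72 h in SMC medium, so that the controls were transfected as well. Values are TPM, a transcript abundance corrected for transcript length and scaled so that every library has an equal total. TPM keeps no depth, so the precision rests on the 3 libraries of a group. Before transfection the cell types were kept in different media. The study describes 3 independent experiments for each comparison, and p-values measure only the spread between these libraries.

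HOX genes encode transcription factors that share a DNA-binding homeodomain. In mammals they lie in 4 clusters, HoxA to HoxD, and genes at matching places in different clusters form paralogue groups, numbered from 1 at the 3′ end to 13 at the 5′ end. Along a cluster, 3′ genes are used in anterior parts of the embryo and 5′ genes in more posterior parts. Adult fibroblasts and smooth muscle cells keep much of this pattern in culture, so the set of active HOX genes is read as a record of where a cell arose. Lung mesenchyme is known for genes of the anterior and middle groups, and Hoxa5 is needed for normal trachea and lung. HOX proteins bind DNA with TALE cofactors of the Pbx, Meis and Pknox families, and Polycomb and Trithorax proteins keep HOX clusters silent or active.

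Among the checks of the libraries, Klf4 fell from 93.6 to 20.5 TPM in SMCs and from 141 to 13 TPM in PDGFR-β+ cells, with the groups apart in both. Smooth muscle markers were no higher in Scr SMCs than in Scr PDGFR-β+ cells: the summed TPM of 8 markers was 1495 to 2284 in the former and 5551 to 6408 in the latter, and Myocd, a master regulator of that lineage, was below 1 TPM in every group mean. The fibroblast genes Dcn and Lum were higher in SMCs (409 against 71.2 TPM, and 15.6 against 0.516 TPM), but other markers of their list went the other way. Of 5 at 1 TPM or more in both Scr groups, 3 were higher and 2 lower in SMCs (limma, adjusted p under 0.05). Among all such genes the shares were 22.9% and 23.1%. The sums over all 6 overlapped, at 3437 to 3558 TPM in Scr SMCs and 2821 to 3519 TPM in Scr PDGFR-β+ cells. The names SMC and PDGFR-β+ are used here as the labels give them. Summed over 5 macrophage markers, TPM was 4.68 to 7.19 in Scr SMCs and 28.6 to 29.9 in Scr PDGFR-β+ cells, mostly from Lyz2 and Cd68, while Ptprc and Adgre1 were below 1 TPM in every group mean. The 5 endothelial markers summed to 1.34 to 2.65 and 15.3 to 18.4 TPM, mostly from Kdr in the latter, with Pecam1, Cdh5 and Vwf below 1 TPM in every group mean, and the 6 epithelial markers summed to at most 1.14 TPM in any library. In each SMC group, 1 library carries no replicate number. Their deviations from the group means correlated with each other across genes (r = 0.36). Values against the numbered SMC libraries (r from -0.22 to -0.19) are then negative on balance, because deviations from a group mean cancel within the group. It is stated below where the call of a named gene in SMCs changed in the 4 numbered libraries.

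Promoter sequences of members that the results turn on are shown first, because the core CACCC is a letter pattern that KLF proteins are known to bind. It was searched on both strands and reads GGGTG on the opposite one. They are the 250 bases before the RefSeq start on GRCm38.p6, in the direction of the gene. Hoxa2 and Hoxa7 rose with siKlf4 in PDGFR-β+ cells, Hoxa5 did not pass the test there, and Hoxb4 missed it narrowly. Capitals mark each match.
Hoxa2 promoter, chr6:52164832-52165081, minus strand: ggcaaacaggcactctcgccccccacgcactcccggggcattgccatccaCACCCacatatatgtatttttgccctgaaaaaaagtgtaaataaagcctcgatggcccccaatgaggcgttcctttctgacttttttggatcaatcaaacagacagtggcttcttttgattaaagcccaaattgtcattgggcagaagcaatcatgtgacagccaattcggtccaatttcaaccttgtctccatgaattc
Hoxa7 promoter, chr6:52218574-52218823, minus strand: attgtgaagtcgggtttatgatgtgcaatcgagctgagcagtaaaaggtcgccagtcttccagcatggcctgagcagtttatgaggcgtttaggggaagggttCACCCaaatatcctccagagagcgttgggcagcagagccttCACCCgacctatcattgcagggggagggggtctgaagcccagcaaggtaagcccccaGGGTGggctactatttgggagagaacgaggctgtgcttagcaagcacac
Hoxa5 promoter, chr6:52204588-52204837, minus strand: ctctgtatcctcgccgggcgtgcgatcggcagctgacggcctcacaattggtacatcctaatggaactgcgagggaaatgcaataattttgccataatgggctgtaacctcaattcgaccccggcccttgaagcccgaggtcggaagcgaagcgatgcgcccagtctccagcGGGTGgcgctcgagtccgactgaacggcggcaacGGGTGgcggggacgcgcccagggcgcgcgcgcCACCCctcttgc
Hoxb4 promoter, chr11:96318017-96318266, plus strand: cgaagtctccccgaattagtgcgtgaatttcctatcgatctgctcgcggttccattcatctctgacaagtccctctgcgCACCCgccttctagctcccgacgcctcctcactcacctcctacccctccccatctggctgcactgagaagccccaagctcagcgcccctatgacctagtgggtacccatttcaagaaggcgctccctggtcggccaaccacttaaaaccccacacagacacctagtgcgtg
The core began 200 bases before the start in Hoxa2 and 171 bases before it in Hoxb4. Hoxa7 held 3 copies, at 147, 106 and 49 bases, and Hoxa5 held 3, at 78, 44 and 12 bases. Of the 18 members that reached a mean of 1 TPM in a cell type, 8 had a promoter sequence, and 5 of those held the core, the fifth being Hoxb8. It was present in 52.0% of 32851 mouse promoters of this length, and Hoxa3, Hoxa6 and Hoxd8 did not hold it. The core was found both in members that rose in PDGFR-β+ cells and in Hoxa5, which did not pass the test there but rose in SMCs. A match of letters is a description and not a bound site.

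Homeoboxes are shown next for 3 genes of the 5′ part of HoxB that rose in PDGFR-β+ cells. The 180 bases that encode the homeodomain were read from GENCODE M21 transcripts, and capitals mark the most conserved stretch of its recognition helix.
Hoxb7 homeobox, chr11:96289385-96289564, plus strand: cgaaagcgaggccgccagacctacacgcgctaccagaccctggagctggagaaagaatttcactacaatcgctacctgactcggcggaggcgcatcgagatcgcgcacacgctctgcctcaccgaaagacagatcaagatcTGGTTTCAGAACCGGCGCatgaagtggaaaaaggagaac
Hoxb6 homeobox, chr11:96300689-96300868, plus strand: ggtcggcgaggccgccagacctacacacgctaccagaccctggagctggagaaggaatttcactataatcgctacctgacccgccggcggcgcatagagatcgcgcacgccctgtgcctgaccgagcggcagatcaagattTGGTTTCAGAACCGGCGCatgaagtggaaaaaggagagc
Hoxb9 homeobox, chr11:96274659-96274838, plus strand: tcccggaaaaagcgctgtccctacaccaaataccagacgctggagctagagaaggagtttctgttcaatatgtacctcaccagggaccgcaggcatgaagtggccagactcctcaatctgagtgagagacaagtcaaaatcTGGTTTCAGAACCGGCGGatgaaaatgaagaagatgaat
The homeobox lay in a single exon in each of the 39 genes. Over the 9 pairs of expressed members in the same paralogue group, identity of these bases ran from 74.4% to 93.9%. Outside overlapping genes, the longest run of bases that the annotated transcripts of 2 expressed members shared was 52, between Hoxa6 and Hoxb4.

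Both cell types used the 3′ and middle genes of HoxA and HoxB and little of HoxC and HoxD. Averaged over its 6 libraries, a level of 1 TPM or more was reached by 15 HOX genes in SMCs and 17 in PDGFR-β+ cells, of which 14 were shared, among them Hoxa2 to Hoxa7 and Hoxb2 to Hoxb8. Hoxd8 reached it in SMCs alone, and Hoxb9, Hoxc6 and Hoxc13 in PDGFR-β+ cells alone. The other 21 genes, among them every HOX gene of groups 10 to 12, stayed below it, and 6 of them (Hoxc11, Hoxc12, Hoxd1, Hoxd10, Hoxd11 and Hoxd12) were listed at 0 in all 12 libraries. The gene nearest below the limit was Hoxd4, at 0.942 TPM in Scr SMCs, and the nearest above it were Hoxd8 in SMCs (1.41 TPM in Scr) and Hoxc13 in PDGFR-β+ cells (1.12 TPM in Scr).

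**Figure D1:**
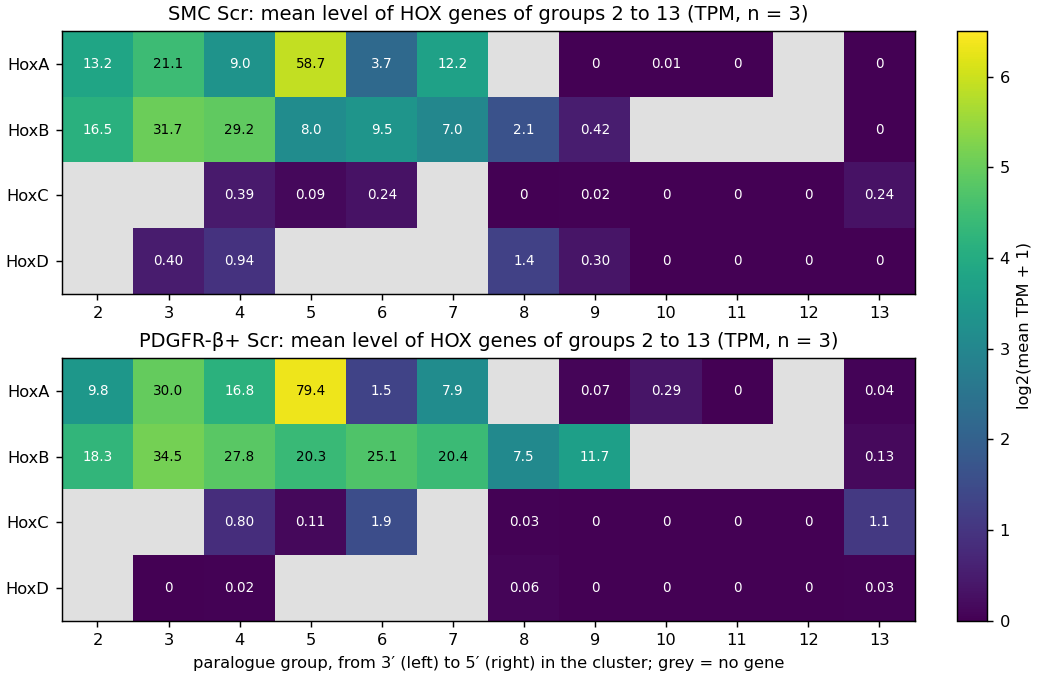
Mean TPM of the HOX genes of paralogue groups 2 to 13 (number in the cell, n = 3 libraries) in Scr SMCs (top) and Scr PDGFR-β+ cells (bottom), with clusters as rows and paralogue groups as columns, coloured by log2(mean TPM + 1); grey cells hold no gene. Levels are found in HoxA up to group 7 and in HoxB from group 2, and they reach 11.7 TPM at Hoxb9 in PDGFR-β+ cells against 0.424 TPM in SMCs.

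Per length, Hoxa5 was the highest HOX transcript in every group mean. In Scr SMCs it was at 60.1, 59.7 and 56.2 TPM, in the order of the unnumbered library and replicates 2 and 3, and in Scr PDGFR-β+ cells at 77.4, 85.3 and 75.3 TPM in replicates 1, 2 and 3. Every Scr PDGFR-β+ library lay above every Scr SMC library. Next in Scr SMCs came Hoxb3 at 31.9, 30.8 and 32.5 TPM and Hoxb4 at 28.8, 29.2 and 29.4 TPM, whose libraries did not overlap, then Hoxa3. In Scr PDGFR-β+ cells the next were Hoxb3 (35.1, 31.7 and 36.7 TPM), Hoxa3 (23.0, 36.4 and 30.6 TPM) and Hoxb4 (28.7, 27.6 and 26.9 TPM), and Hoxa3 overlapped both of the others. Hoxb4, known from the growth of blood stem cells, and Hoxa3, needed for the thymus and parathyroid, were thus among the most abundant HOX transcripts in both cell types. Hoxa3 is annotated across Hoxa4, Hoxa5 and Hoxa6 on the same strand, so reads may be shared among these genes.

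The whole HOX family summed to 230.4, 237 and 231 TPM in Scr SMCs and 308, 343 and 311 TPM in Scr PDGFR-β+ cells. With siKlf4 the sums were 242, 259.5 and 267 TPM in SMCs and 456, 450.1 and 439 TPM in PDGFR-β+ cells. PDGFR-β+ libraries lay above SMC libraries under both treatments, and the siKlf4 libraries lay above the Scr libraries in each cell type. HoxA held 50.7% to 57.2% of the HOX TPM in Scr SMC libraries and 45.7% to 48.8% in Scr PDGFR-β+ libraries, and HoxB held 41.1% to 47.3% and 49.9% to 53.1%. HoxC and HoxD each held under 2% in every library.

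The comparison of Scr SMCs with Scr PDGFR-β+ cells asks how far the positional code of these cultures differs before Klf4 is lowered. At the 5′ side of HoxB, Hoxb5 to Hoxb8 were lower in SMCs by the test and Hoxb9 by its levels. Hoxb2, Hoxb3 and Hoxb4 did not pass the test. With limma on log2(TPM + 1), 16 HOX genes were tested, against a background of 23.3% lower and 24.4% higher among all genes at an adjusted p under 0.05. Hoxb9 and Hoxc6 reached the filter through PDGFR-β+ cells alone and are described by their levels. Of the other 14, at 1 TPM or more in both Scr groups, 7 were lower in SMCs and 3 higher (50% and 21.4%), against 23.1% and 22.9% among all genes at that level in both groups. The median log2 difference of the 14 was -0.29, beside 0.0011 over those genes. The values come from a separate table for each cell type. The cell type cannot be told apart from its supplier, labelled tissue, mouse genotype, tamoxifen exposure, isolation, earlier medium and passage. Nor can it be told apart from donor age, which is not given for SMCs. In bulk RNA fewer expressing cells and less RNA per cell cannot be told apart either.

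Hoxb9, the most 5′ of the expressed HoxB genes and a patterning gene of the thoracic skeleton, had the largest ratio of means among the tested members. It was at 0.224, 0.419 and 0.630 TPM in Scr SMCs and at 12.7, 11.4 and 11 TPM in Scr PDGFR-β+ cells. All SMC libraries lay below 1 TPM and all PDGFR-β+ libraries above 10 TPM, a ratio of means of 27.6. The fitted difference, which log2(TPM + 1) compresses at such low levels, was -3.16. It is given as a description, because Hoxb9 entered the fit through PDGFR-β+ cells alone.
Hoxb8 was at 2.06, 2.37 and 1.86 TPM in Scr SMCs and 5.40, 10.7 and 6.51 TPM in Scr PDGFR-β+ cells. Hoxb7 was at 5.40, 8.41 and 7.19 TPM in the former and 21.2, 20.1 and 19.9 TPM in the latter. Hoxb6 was at 6.80, 10.4 and 11.1 TPM and 23.6, 27.9 and 23.7 TPM. None of these 3 genes overlapped between the cell types, and for each the PDGFR-β+ mean was between 2.65 and 3.60 times that in SMCs. Hoxb5, which takes part in branching of the embryonic lung, was at 6.27, 9.32 and 8.36 TPM and 17.9, 22.9 and 20.2 TPM and did not overlap either. The log2 differences were -1.42 ± 0.23 for Hoxb8, -1.44 ± 0.15 for Hoxb7, -1.34 ± 0.18 for Hoxb6 and -1.25 ± 0.16 for Hoxb5 (SE, limma adjusted p from 1.89e-04 to 0.00157).
The other HoxB genes stood near each other in both cell types. Hoxb4 ranged from 28.8 to 29.4 TPM in Scr SMCs and from 26.9 to 28.7 TPM in Scr PDGFR-β+ cells, a log2 difference of 0.07 (95% interval -0.11 to 0.25). The intervals for Hoxb2 and Hoxb3 were -0.48 to 0.17 and -0.32 to 0.09. Set out by position, the annotated start of Hoxb4 lies 47.5 kb and that of Hoxb5 62.4 kb from the start of Hoxb1, the most 3′ gene, and the start of Hoxb9 lies 94.3 kb from it. The summed TPM of groups 6 to 9 in HoxB was 14.5, 21.6 and 20.8 in Scr SMCs and 62.9, 70.1 and 61.0 in Scr PDGFR-β+ cells, while that of groups 1 to 5 was 80.2 to 88.2 in the former and 101 in each library of the latter.

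**Figure D2:**
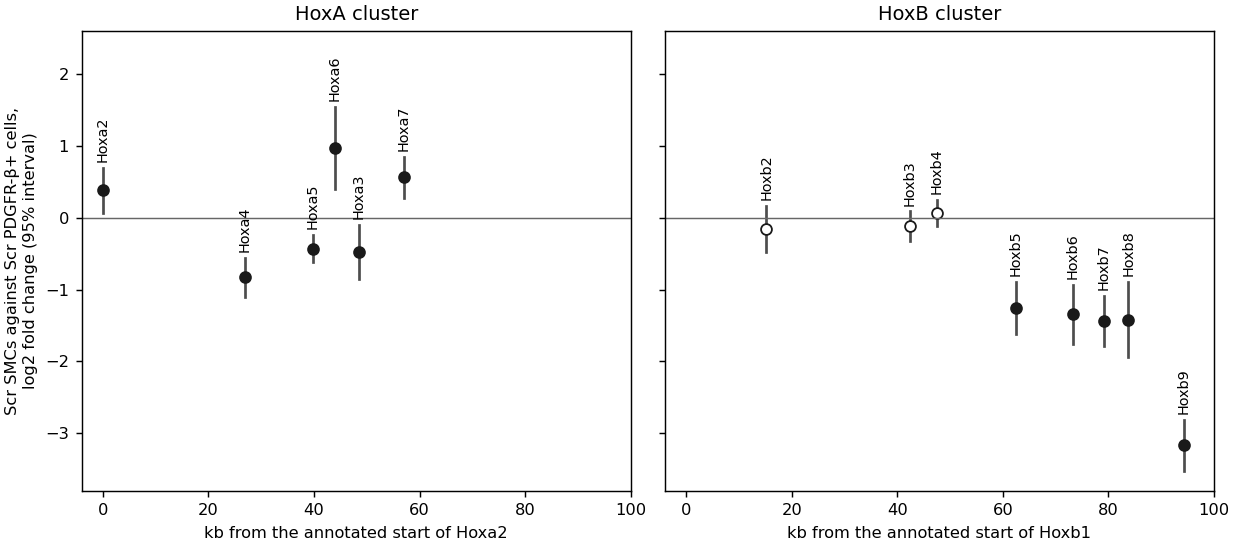
Log2 fold change of Scr SMCs against Scr PDGFR-β+ cells (point, 95% interval from limma) for tested genes of HoxA (left) and HoxB (right), placed by the distance in kb from the annotated start of Hoxa2 or Hoxb1; filled points have an adjusted p under 0.05. In HoxB the points lie near 0 up to Hoxb4 and between -1.25 and -3.16 from Hoxb5 on, whereas HoxA genes lie on both sides of 0. Hoxb9 (-3.16) entered the fit through PDGFR-β+ cells alone and is shown as a description.

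HoxA showed no such division along the cluster. Hoxa2 and Hoxa7 were higher in Scr SMCs, and so was Hoxa6, whereas Hoxa3, Hoxa4 and Hoxa5 were lower. Hoxa7 was at 13.4, 12.4 and 10.9 TPM in Scr SMCs and 7.08, 8.28 and 8.46 TPM in Scr PDGFR-β+ cells, without overlap (log2 difference 0.56 ± 0.12 SE, limma adjusted p = 0.00675). Its paralogue Hoxb7 thus differed in the opposite direction. Hoxa6 was at 3.82, 3.47 and 3.76 TPM and 1.85, 1.99 and 0.593 TPM, also opposite to Hoxb6 (0.97 ± 0.25 SE, limma adjusted p = 0.0137). Hoxa4 was at 9.43, 9.59 and 8.07 TPM in Scr SMCs and 16.2, 18.6 and 15.6 TPM in Scr PDGFR-β+ cells, again without overlap (-0.83 ± 0.12 SE, limma adjusted p = 8.29e-04). Hoxa5 gave -0.43 ± 0.08 (SE, limma adjusted p = 0.00373). Hoxa2, which patterns the face and hindbrain, and Hoxa3 passed narrowly, at 0.38 (limma adjusted p = 0.0484) and -0.47 (limma adjusted p = 0.0453). Each of them missed the threshold when any one of 5 of the 6 libraries was left out, with adjusted p up to 0.118 for Hoxa2 and 0.124 for Hoxa3.

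HoxC and HoxD divided the cell types in opposite directions at low levels. Hoxc6 was at 0.175, 0.172 and 0.388 TPM in Scr SMCs and 1.51, 1.87 and 2.34 TPM in Scr PDGFR-β+ cells, without overlap (log2 difference -1.22, given as a description). Its ratio of means, 7.79, was above those of Hoxb5 to Hoxb8, and with a pseudocount of 0.1 its log2 difference was -2.58 beside -1.74 for Hoxb8. It fell below the filter when any 1 of the 3 PDGFR-β+ libraries was left out. Hoxc13, best known from hair and nail, was at 0.194, 0.310 and 0.227 TPM and 1.10, 1.47 and 0.787 TPM, also without overlap. In HoxD, Hoxd8 was at 1.24, 1.76 and 1.22 TPM in Scr SMCs and 0.0700, 0.0737 and 0.0409 TPM in Scr PDGFR-β+ cells. Hoxd3 was at 0.327, 0.360 and 0.525 TPM and Hoxd9 at 0.404, 0.203 and 0.284 TPM in Scr SMCs, and both were listed at 0 in all 3 Scr PDGFR-β+ libraries. Hoxd4 was at 1.31, 0 and 1.52 TPM in Scr SMCs, with 1 library listed at 0, and at 0, 0.0650 and 0 TPM in Scr PDGFR-β+ cells. Summed over the 9 HoxD genes, TPM was 3.28, 2.32 and 3.55 in Scr SMCs and 0.0700, 0.139 and 0.124 in Scr PDGFR-β+ cells, and over the 9 HoxC genes 0.768, 1.11 and 1.10 and 3.68, 4.43 and 3.81. Hoxd8, Hoxd3, Hoxd9 and Hoxc13 entered the fit only without the filter on low values. So did Hoxa10, at means of 0.0125 TPM in Scr SMCs and 0.289 TPM in Scr PDGFR-β+ cells. Each was near the floor in the cell type where it was lower, so they are given as a description by their levels. Hoxd3, Hoxd4 and a noncoding gene overlap on 1 strand, so their reads may be shared.

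The effect of siKlf4 in PDGFR-β+ cells was one of rises: 8 HOX genes rose and 0 fell. Of 17 HOX genes tested, 8 were higher at an adjusted p under 0.05 (47.1%), against 25.3% higher and 15.3% lower among all genes tested. At an unadjusted p under 0.05 the counts were 10 and 0, beside 6876 of all 13694 genes in both directions together. The median log2 fold change of the 17 was 0.46, beside 0.10 over all genes. The 8 comprised 5 HoxB genes (Hoxb2, Hoxb3, Hoxb6, Hoxb7 and Hoxb9) and 3 HoxA genes (Hoxa2, Hoxa4 and Hoxa7). No rise reached 1 on the log2 scale in the fit. TPM has a fixed total, and another scaling, by median ratios, moved the median over all genes by -0.09 and turned the split of all calls from 62.3% to 48.2% higher, while each of these 8 HOX genes was still higher.

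Of the genes tested, Hoxb7 showed the largest rise. It lies on chr11:96286623-96290162 (mm10, plus strand) with no annotated gene over it. Its level was 21.2, 20.1 and 19.9 TPM in Scr and 41.2, 42.6 and 40.4 TPM in siKlf4 PDGFR-β+ libraries. Every siKlf4 library lay far above every Scr library, at a ratio of means of 2.03, and the spread within a group was small (20.4 ± 0.733 and 41.4 ± 1.13 TPM, SD, n = 3). The log2 fold change was 0.99 ± 0.07 (SE, limma adjusted p = 7.14e-05).
Hoxb9, on chr11:96271457-96276595 (plus strand), was at 12.7, 11.4 and 11 TPM in Scr and 21, 23.4 and 22.1 TPM in siKlf4 libraries, a log2 fold change of 0.87 ± 0.09 (SE, limma adjusted p = 3.73e-04). Hoxb6, on chr11:96292476-96301569 (plus strand), went from 23.6, 27.9 and 23.7 TPM to 43.3, 41.1 and 38.7 TPM (0.69 ± 0.09 SE, limma adjusted p = 0.00113). Neither gene overlapped between treatments. Hoxb8 lies between Hoxb9 and Hoxb7 and had the widest spread, with 5.40, 10.7 and 6.51 TPM in Scr and 16.9, 9.10 and 12.1 TPM in siKlf4 libraries. Its groups overlapped, because Scr replicate 2 lay above siKlf4 replicate 2, and it did not pass (0.69 ± 0.27 SE, limma adjusted p = 0.0801, 0.0238 without Scr replicate 2 and 0.0335 in a single fit over the 12 libraries).
In the 3′ part of HoxB, Hoxb3 was at 35.1, 31.7 and 36.7 TPM in Scr and 59.9, 54.0 and 55.4 TPM in siKlf4 libraries. Hoxb2, a gene of hindbrain patterning, was at 19.2, 18.6 and 17.2 TPM and 28.2, 28.5 and 30.4 TPM. Both were apart in all libraries and both passed, at 0.69 ± 0.08 and 0.64 ± 0.08 (SE, limma adjusted p = 6.78e-04 and 8.66e-04). Hoxb4 and Hoxb5, which lie between these genes and Hoxb6, did not pass. Hoxb4 was at 28.7, 27.6 and 26.9 TPM and 32.6, 32.0 and 31.5 TPM, apart but with a log2 fold change of 0.20 (95% interval 0.04 to 0.36, limma adjusted p = 0.0545). Hoxb4 was higher, however, with no filter, with a minimum of 5 TPM and in the single fit (adjusted p from 0.0199 to 0.04996), and not under the other alternatives (adjusted p up to 0.211). Hoxb5 was at 17.9, 22.9 and 20.2 TPM and 22.1, 20.9 and 22.5 TPM, with overlap (95% interval -0.13 to 0.35). The antisense gene Hoxb5os covers Hoxb5 and Hoxb6, and Hoxb3os covers Hoxb2 and Hoxb3. The library kit keeps strand, but the setting used to assign reads is not stated, so reads of these pairs cannot be told apart with certainty.

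**Figure D3:**
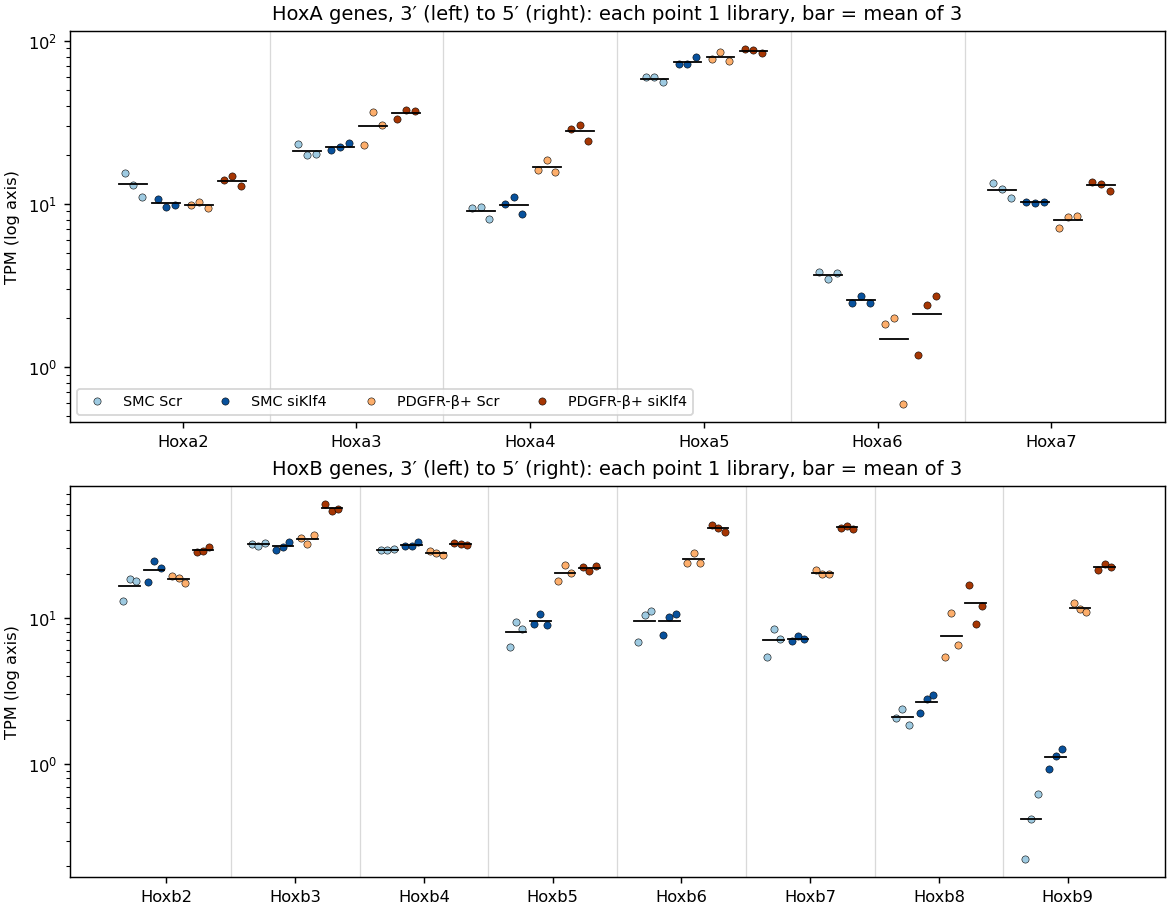
TPM (log axis) of expressed HoxA (top) and HoxB (bottom) genes from 3′ to 5′, with each point 1 library, the bar the mean of 3, and colours for the 4 groups. In PDGFR-β+ cells the siKlf4 points of Hoxb7 (40.4 to 42.6) lie above the Scr points (19.9 to 21.2), while the SMC points of Hoxb7 overlap between treatments.

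Within HoxA, Hoxa4 rose most. It was at 16.2, 18.6 and 15.6 TPM in Scr and 28.8, 30.5 and 24.3 TPM in siKlf4 PDGFR-β+ libraries (0.70 ± 0.11 SE, limma adjusted p = 0.00254). Hoxa7 went from 7.08, 8.28 and 8.46 TPM to 13.7, 13.2 and 12.0 TPM (0.65 ± 0.10 SE, limma adjusted p = 0.00255), and Hoxa2 from 9.80, 10.3 and 9.38 TPM to 14.0, 14.8 and 12.8 TPM (0.46 ± 0.09 SE, limma adjusted p = 0.00697). None of the 3 overlapped between treatments. An antisense gene is annotated over Hoxa4, Hoxa5, Hoxa6 and Hoxa7, and another gene over Hoxa2 and Hoxa4 on the same strand. As in HoxB, reads of these genes cannot be told apart with certainty. Hoxa5, the most abundant member, was at 77.4, 85.3 and 75.3 TPM and 88.9, 87.2 and 84.0 TPM and did not pass (95% interval -0.04 to 0.30). Hoxa3 was at 23.0, 36.4 and 30.6 TPM and 33.3, 37.6 and 37.1 TPM and Hoxa6 at 1.85, 1.99 and 0.593 TPM and 1.19, 2.40 and 2.73 TPM. Both overlapped and did not pass, with 95% intervals of -0.09 to 0.64 and -0.37 to 1.06, although Hoxa3 did without Scr replicate 2 (adjusted p = 0.0480). With siKlf4, Hoxc6 was at 2.10, 2.62 and 2.49 TPM and Hoxc13 at 1.70, 1.18 and 1.32 TPM, both overlapping their Scr values, and neither passed. In paralogue group 7 both members rose, and in group 2 both did. In groups 3, 4 and 6 a single member passed (Hoxb3, Hoxa4 and Hoxb6), and in group 5 neither did; these differences between paralogues were not tested.

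The summed TPM of HoxB groups 6 to 9 was 62.9, 70.1 and 61.0 in Scr and 122, 116 and 113 in siKlf4 PDGFR-β+ libraries, and HoxB went from 49.9% to 53.1% of all HOX TPM in Scr to 55.9% to 58.2% with siKlf4. In the same cells the macrophage sum was 28.6 to 29.9 TPM in Scr and 18.7 to 22.8 TPM in siKlf4 libraries, with Lyz2 and Csf1r lower and Cd68 not passing, and the pericyte sum of 5 markers was 30.0 to 45.5 and 13.6 to 19.2 TPM, mostly from Cspg4. The endothelial sum was 15.3 to 18.4 and 14.1 to 16.2 TPM, and the smooth muscle sum 5551 to 6408 and 4708 to 5003 TPM. The part of such cells in the HOX values was not tested.

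In SMCs 3 HOX genes passed the test with siKlf4, all in HoxA, and among them Hoxa5 rose and Hoxa6 fell. Of 15 tested, 2 were higher and 1 lower, against 15.6% higher and 12.9% lower among all genes tested, so the shares of 13.3% and 6.67% were not above the background. The median log2 fold change of the 15 was 0.08, beside 0.02 over all genes. Hoxa5 was at 60.1, 59.7 and 56.2 TPM in Scr and 71.9, 71.7 and 79.8 TPM in siKlf4 SMC libraries, without overlap (0.34 ± 0.07 SE, limma adjusted p = 0.0150, and 0.0268 in the 4 numbered libraries). Without Scr replicate 3 or siKlf4 replicate 3 it missed the threshold, with adjusted p up to 0.0579.
Hoxa6 was at 3.82, 3.47 and 3.76 TPM in Scr and 2.48, 2.73 and 2.48 TPM in siKlf4 SMC libraries. The groups were apart and it fell by 0.39 on the log2 scale (limma adjusted p = 0.0447), but the call was lost in the numbered libraries (adjusted p = 0.126), with libraries of the same label as a block (0.0595), and when any 1 of the 6 libraries was left out. Hoxa2 was at 15.6, 13 and 11 TPM and 10.8, 9.55 and 9.86 TPM, and Hoxa7 at 13.4, 12.4 and 10.9 TPM and 10.2, 10.1 and 10.3 TPM. In both genes every siKlf4 library lay below every Scr library, and neither passed (log2 fold changes -0.35 ± 0.13 and -0.23 ± 0.10 SE, limma adjusted p = 0.0905 and 0.128). Hoxa2 was lower, however, without Scr replicate 3 (adjusted p = 0.0457) and in a single fit over the 12 libraries (0.0354). Hoxa3 was at 23.1, 19.9 and 20.1 TPM and 21.4, 22.2 and 23.5 TPM and Hoxa4 at 9.43, 9.59 and 8.07 TPM and 9.95, 11 and 8.67 TPM, with overlap, and they gave 95% intervals of -0.13 to 0.30 and -0.17 to 0.40.
None of 7 tested HoxB genes passed in SMCs in the fit without pairing, but Hoxb2 passed in some other fits. In the fit without pairing none of the 7 had an unadjusted p under 0.05, beside 5709 of all 13709 genes. Hoxb7 was at 5.40, 8.41 and 7.19 TPM in Scr and 6.97, 7.45 and 7.13 TPM in siKlf4 libraries, with overlap (95% interval -0.31 to 0.41). Hoxb3 was at 31.9, 30.8 and 32.5 TPM and 29.0, 30.6 and 32.8 TPM, with an interval of -0.22 to 0.14. Hoxb6 had 6.80, 10.4 and 11.1 TPM and 7.62, 10.1 and 10.7 TPM, in which the unnumbered library was the lowest of each group, and an interval of -0.46 to 0.49. Hoxb2 was at 13.1, 18.4 and 17.9 TPM and 17.4, 24.5 and 21.9 TPM, with the unnumbered library again lowest in each group and siKlf4 above Scr for each label. It did not pass over the 6 libraries (limma adjusted p = 0.158). With libraries of the same label as a block it rose (0.35, adjusted p = 0.0203), and it rose in the 4 numbered libraries (0.34, adjusted p = 0.0482). Hoxb4 was at 30.8, 31.0 and 33.0 TPM with siKlf4, above all 3 Scr libraries, with an interval of -0.05 to 0.28. Hoxb5 was at 9.06, 10.7 and 8.89 TPM and Hoxb8 at 2.25, 2.79 and 2.99 TPM, which overlapped their Scr values. Hoxd8, the only HoxD gene tested in SMCs, was at 0.749, 0.995 and 1.67 TPM with siKlf4, overlapped Scr and did not pass (interval -0.68 to 0.30).
In SMCs the summed smooth muscle markers were 1495 to 2284 TPM in Scr and 3411 to 4174 TPM in siKlf4 libraries, the macrophage sum was 4.68 to 7.19 and 4.44 to 6.51 TPM, and the endothelial sum was 1.34 to 2.65 and 3.54 to 4.02 TPM. Their part in the HOX values was not tested.

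**Figure D4:**
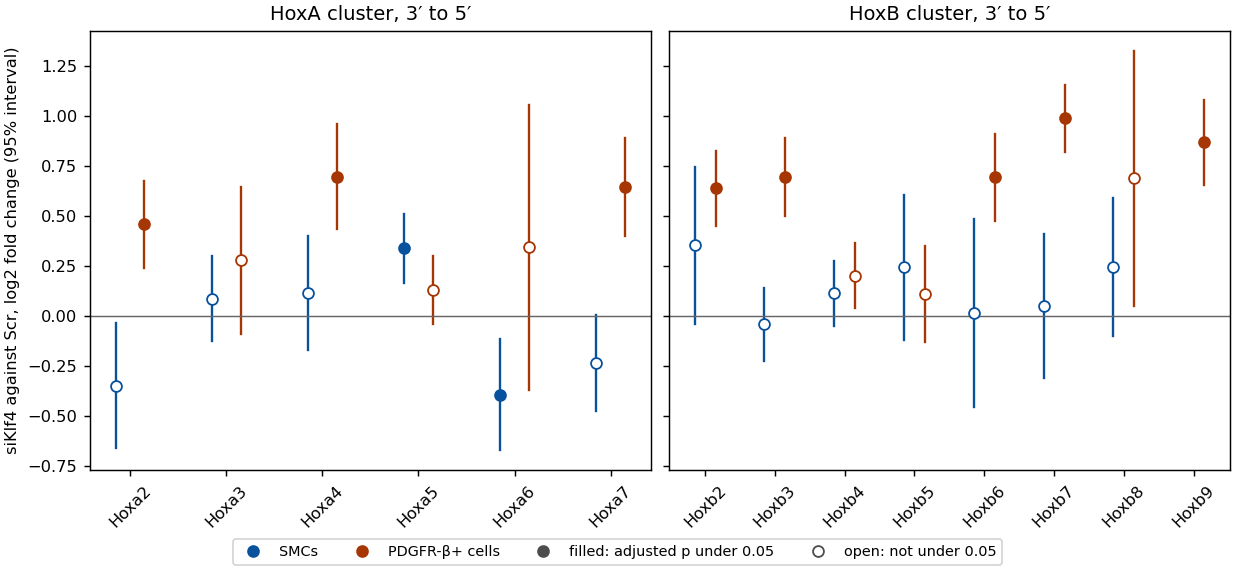
Log2 fold change of siKlf4 against Scr (point, 95% interval from limma) for tested genes of HoxA (left) and HoxB (right) from 3′ to 5′, in SMCs (blue) and PDGFR-β+ cells (brown); filled points have an adjusted p under 0.05. In HoxB, 5 PDGFR-β+ points are filled, from 0.64 to 0.99, and no SMC point is.

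The difference between the responses was tested as an interaction over the 12 libraries, among genes averaging 1 TPM or more in SMCs and in PDGFR-β+ cells alike. Of 14 HOX genes tested, the siKlf4 effect was lower in SMCs than in PDGFR-β+ cells in 6 and higher in 0, against 18.5% lower and 14.5% higher among all genes tested. At an unadjusted p under 0.05 the counts were also 6 and 0, beside 5702 of all 13032 genes in both directions together, a similar share. With median-ratio scaling Hoxa5 was higher as a single gene. The median difference of the 14 was -0.51, beside -0.08 over all genes. The largest were those of Hoxb7 (-0.94 ± 0.17 SE, limma adjusted p = 0.00141), Hoxa7 (-0.88 ± 0.14 SE, limma adjusted p = 6.73e-04) and Hoxa2 (-0.81 ± 0.16 SE, limma adjusted p = 0.00283). For Hoxa7 and Hoxa2 the siKlf4 libraries lay below all Scr libraries in SMCs and above them all in PDGFR-β+ cells. Hoxb3 gave -0.74 ± 0.11 (SE, limma adjusted p = 4.09e-04). Hoxa4 and Hoxb6 also passed, at -0.58 (limma adjusted p = 0.0191) and -0.68 (limma adjusted p = 0.0428). With the 4 numbered SMC libraries Hoxa4 was lost (adjusted p = 0.0570), and Hoxb6 was lost in 9 of the 12 fits that left out 1 library (adjusted p up to 0.0931). Klf4 itself fell further in PDGFR-β+ cells, by a difference of 1.19 ± 0.19 (SE, limma adjusted p = 6.90e-04), and the part of this difference in the HOX values was not tested.

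Between siKlf4 SMCs and siKlf4 PDGFR-β+ cells, 12 of the 15 HOX genes at 1 TPM or more in both groups were lower in SMCs and 1 was higher (80% and 6.67%). Among all genes tested 29.5% were lower and 22.7% higher, a background that also holds genes below 1 TPM in a group. Hoxb7 had a log2 difference of -2.37, beside -1.44 in Scr, and Hoxa4 -1.41 beside -0.83. Hoxb3, at -0.11 in Scr, was at -0.85. Hoxa2 and Hoxa7, which were higher in SMCs in Scr, were lower there with siKlf4, at -0.43 and -0.32 (limma adjusted p = 0.00738 and 0.0183).

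Members under the filter were compared by whether their groups overlapped, since the smallest two-sided exact permutation p with 3 libraries against 3 is 0.1. Among 24 such genes in SMCs, every siKlf4 library lay above every Scr library in 3, Hoxa9, Hoxa10 and Hoxb9, and in 0 below. Of these 24, 14 were above 0 in a library, and among all genes under the filter and above 0 the shares were 4.84% above and 6.32% below. Among 22 in PDGFR-β+ cells this held for 3, Hoxa9, Hoxc5 and Hoxd8, and in 0 below, with 15 of the 22 above 0 in a library and shares of 8.97% above and 4.39% below among all such genes. Hoxb9 is the one with a readable level in SMCs: 0.224, 0.419 and 0.630 TPM in Scr and 0.931, 1.13 and 1.27 TPM with siKlf4, a ratio of means of 2.62 (exact permutation p = 0.1). Its rise passed narrowly in the fit without a filter (log2 0.58, limma adjusted p = 0.0494), and the difference from its rise in PDGFR-β+ cells did not pass there (-0.29, limma adjusted p = 0.388). Hoxa9 was listed at 0 in all Scr SMC libraries and was at most 0.0911 TPM with siKlf4, and in PDGFR-β+ cells it was at 0, 0.0901 and 0.114 TPM and 0.280, 0.161 and 0.186 TPM. Hoxd8 was at 0.0700, 0.0737 and 0.0409 TPM in Scr and 0.194, 0.119 and 0.436 TPM in siKlf4 PDGFR-β+ libraries. Hoxa10 and Hoxc5 stayed below 1 TPM in every library.

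Genes that act with HOX proteins were counted next. Of 12 TALE cofactor genes, all tested, 3 rose with siKlf4 in PDGFR-β+ cells (25.0%, near the 25.3% of all genes tested) and 0 fell (15.3% of all genes): Tgif1 (0.74 ± 0.11 SE), Pbx2 (0.70 ± 0.19 SE) and Meis2 (0.48 ± 0.08 SE). Pbx and Meis proteins bind DNA together with HOX proteins, and Tgif1 is a repressor of the same structural class. In SMCs 0 rose (15.6% of all genes) and 2 fell (16.7%, near the 12.9% of all genes), Pknox2 (-0.58 ± 0.10 SE) and Pbxip1, a protein that binds Pbx (-0.23 ± 0.07 SE). Pbxip1 was lost with no filter, without a trend, and when any one of 5 of the 6 libraries was left out (adjusted p up to 0.132), and Pbx2 with no filter and without Scr replicate 1 or 3 (up to 0.0674). The median log2 fold change of the 12 was 0.02 in PDGFR-β+ cells and -0.08 in SMCs.

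Of 24 Polycomb genes, 14 rose and 2 fell in PDGFR-β+ cells (58.3% and 8.33%, against 25.3% and 15.3% of all genes), with a median log2 fold change of 0.35. Among those that rose were Cbx2 (0.81 ± 0.11 SE), Cbx7 (0.80 ± 0.20 SE), Rnf2 (0.75 ± 0.10 SE), Ezh1 (0.72 ± 0.08 SE) and Bmi1 (0.61 ± 0.09 SE). Cbx2 and Cbx7 read methylated histone H3 in Polycomb complexes, Rnf2 is their ubiquitin ligase with Bmi1 as partner, and Ezh1 is a histone methyltransferase. The falls were in Phc3 (-0.60) and Ring1 (-0.34), named after their values were seen. Ring1 was lost when any one of 4 of the 6 libraries was left out (adjusted p up to 0.0665), and Cbx7 with no filter and without Scr replicate 3 (up to 0.0560). In SMCs 2 rose, Phc2 (0.39 ± 0.08 SE) and Eed (0.28 ± 0.08 SE), and 2 fell, Cbx7 (-1.07 ± 0.23 SE) and Cbx6 (-0.38 ± 0.09 SE), with a median of 0.13. These shares of 8.33% each were below the 15.6% and 12.9% of all genes. Eed was lost under 4 alternatives, both scalings among them, and when any one of 5 of the 6 libraries was left out (adjusted p up to 0.145). Cbx6 was lost in the numbered libraries (adjusted p = 0.0864) and when any one of 3 libraries was left out. Cbx7 was at 7.56 and 3.09 TPM in Scr and siKlf4 SMCs and at 2.09 and 4.51 TPM in PDGFR-β+ cells. By the interaction, the effect was lower in SMCs for 10 Polycomb genes and higher for 1, Phc3 (41.7% and 4.17%, against 18.5% and 14.5% of all genes). Of 12 Trithorax and related activating genes, 4 rose in PDGFR-β+ cells (33.3%, against 25.3% of all genes) and 0 fell: Dot1l (0.65 ± 0.12 SE), Wdr5 (0.59 ± 0.09 SE), Kmt2a (0.51 ± 0.07 SE) and Kdm6b (0.46 ± 0.07 SE). Kmt2a is the methyltransferase that maintains HOX activity, and Kdm6b removes the Polycomb mark. In SMCs 2 rose, Wdr5 (0.55 ± 0.08 SE) and Kdm6b (0.52 ± 0.08 SE), and 0 fell, a share of 16.7% beside 15.6% of all genes. Over the alternatives run without a minimum fold change, 11 to 14 Polycomb genes rose in PDGFR-β+ cells. With median-ratio scaling 13 of the 24 Polycomb genes rose and 2 fell there, and 4 of the 12 Trithorax genes rose and 2 fell. Of all 13694 genes tested, 2712 rose and 2914 fell with that scaling.

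**Figure D5:**
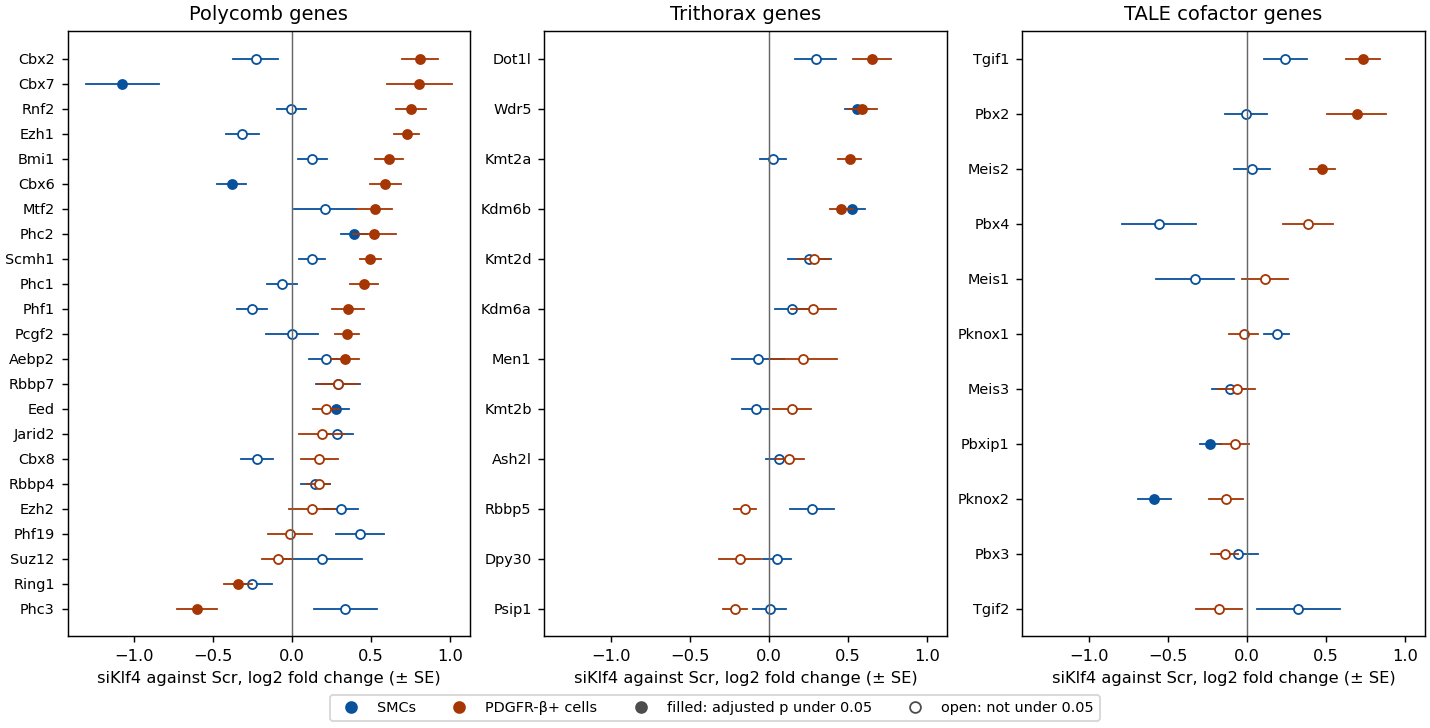
Log2 fold change of siKlf4 against Scr (point, bar ± SE from limma) for tested Polycomb, Trithorax and TALE cofactor genes, in SMCs (blue) and PDGFR-β+ cells (brown); filled points have an adjusted p under 0.05. In the Polycomb panel most filled PDGFR-β+ points lie above 0 and 2 below, and Cbx7 lies at 0.80 in PDGFR-β+ cells and -1.07 in SMCs.

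Of 21 noncoding RNAs of the HOX clusters, 17 were in the tables, and 5 passed the filter in SMCs and 7 in PDGFR-β+ cells. Hoxb3os, antisense to Hoxb3 and Hoxb2, rose in PDGFR-β+ cells (1.17 to 2.07 TPM, 0.50 ± 0.14 SE), as 1 of the 7 there (14.3%, below the 25.3% of all genes). The call was lost with quantile normalization, with the replicate block and when any one of 5 of the 6 libraries was left out (adjusted p up to 0.0765). Hoxaas2, antisense within Hoxa3, fell in SMCs (6.99 to 4.14 TPM, -0.63 ± 0.19 SE), as 1 of the 5 there (20%, against 12.9% of all genes). It was lost in the numbered libraries (adjusted p = 0.0557), under 3 other alternatives and when any one of 4 of the 6 libraries was left out (up to 0.123). Between the Scr groups, Hoxb5os was lower in SMCs (-1.02 ± 0.30 SE), though not with no filter or without PDGFR-β+ Scr replicate 1 or 2 (adjusted p up to 0.0782). It was 1 of the 5 at 1 TPM or more in both groups. That share of 20% was near the 23.1% of all such genes, and 0 were higher, against 22.9%. The rows of the HoxB hairpin genes Mir10a and Mir196a-1 reached the filter through PDGFR-β+ cells alone (0.0898 against 1.92 TPM, and 0.553 against 3.42 TPM), and in libraries made from poly(A) RNA they do not measure the mature miRNAs. Hotair and Hottip, noncoding RNAs of the 5′ parts of HoxC and HoxA, were listed at 0 in all libraries, as were Mir196a-2, Mir196b and Mir615.

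Other regional identity factors, which mark body regions outside the HOX code, also separated the cell types. Of 39, 20 were tested between Scr SMCs and Scr PDGFR-β+ cells, and of the 18 at 1 TPM or more in both, 10 were higher and 4 lower in SMCs. The share of 55.6% higher stands beside 22.9% of all genes at that level in both groups, and that of 22.2% lower is near their 23.1%. Tbx4, a factor of lung and hindlimb mesenchyme, was at 49.3, 55.6 and 55.1 TPM in Scr SMCs and 6.5, 5.35 and 4.50 TPM in Scr PDGFR-β+ cells (3.08 ± 0.13 SE). Tcf21, a factor of lung and other visceral fibroblasts, was at 18.9, 14.2 and 13 TPM and 1.16, 1.04 and 1.11 TPM (2.95 ± 0.16 SE). Emx2, better known from brain and urogenital tissue, was lower in SMCs, at 7.67, 7.83 and 7.77 TPM against 29.4, 30.3 and 31.4 TPM (-1.84 ± 0.09 SE). None of the 3 overlapped. Nkx6-1 (1.56), Hand2 (1.49) and Isl1 (1.24) were also higher in SMCs. With siKlf4, 6 of 19 tested rose and 2 fell in PDGFR-β+ cells (31.6% and 10.5%, near the 25.3% and 15.3% of all genes). Hand2, a factor of heart and limb, went from 1.21, 1.54 and 1.00 to 5.19, 2.93 and 3.85 TPM (1.13 ± 0.20 SE). Six4 (0.80), Nkx3-2 (0.58) and Foxf1 (0.36), the last named after its value was seen, rose as well, and Tbx15 fell (-0.48), as did Barx1 (-0.38), which was named after its value was seen. Barx1 was lost under 3 alternatives, the replicate block among them, and when any one of 5 of the 6 libraries was left out (adjusted p up to 0.0883), and Nkx3-2 with no filter and when any one of 4 was (up to 0.0837). In SMCs 0 of 19 rose (15.6% of all genes) and 2 fell (10.5%, against 12.9%), Tcf21 (18.9, 14.2 and 13 to 8.57, 3.73 and 5.50 TPM, -1.28 ± 0.26 SE) and Nkx6-1 (-0.57 ± 0.14 SE), which was lost in the numbered libraries (adjusted p = 0.0551), with no filter and when any one of 3 libraries was left out. Tbx4, Tbx5 and Foxf1, the core factors of lung mesenchyme, were above 1 TPM in every group mean. For the genes named from these lists as passing a test, limma adjusted p ran from 2.81e-06 to 0.0477.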

How the data were processed

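RNA-seq of 12 libraries was analysed, 3 each of Scr and siKlf4 SMCs and Scr and siKlf4 PDGFR-β+ cells. The authors deposited 1 table of TPM values for each cell type. The submitters' processing notes name HISAT2, StringTie, DESeq2 and the mm10 build, and the GENCODE release is not given in the sources used here. Each column was tied to its sample by its name, and 1 column in each SMC group carries no replicate number. The depth of the libraries cannot be read from TPM.

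A gene entered a fit when its TPM averaged 1 or more over the libraries compared, and for the interaction when it did so in each cell type. Values were tested as log2(TPM + 1) with limma 3.58.1 (R 4.3.3; empirical Bayes with a trend), a scale on which the changes of low genes are understated. Adjustment was by Benjamini-Hochberg over all genes tested, at 0.05. The scripts were tested on simulated data. HOX genes averaging 1 TPM or more in a cell type were named with their libraries, and from each list (TALE cofactors, Polycomb, Trithorax, HOX cluster noncoding RNAs, regional identity factors) at most the 6 largest changes past the threshold. Some genes and sequences are not reported here. The members and lists were chosen with earlier results of these data known. Positions came from GENCODE M21 (mm10), which held 52403 of the 52636 gene identifiers, and promoters from RefSeq (GRCm38.p6), which held 22 of the 39 HOX genes.

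Alternatives were a pseudocount of 0.1, no filter, a minimum of 5 TPM, median-ratio scaling, quantile normalization, no trend, a single fit over 12 libraries, a replicate block, a log2 fold change of at least 1, the numbered SMC libraries, the siKlf4 libraries for the contrast of cell types, and leaving out each library. For the difference between cell types the numbered SMC libraries were chosen after seeing the data. Libraries of the same label deviated together in each of 3 SMC pairs, the unnumbered one included (r from 0.19 to 0.36 across genes), and not in PDGFR-β+ cells (r from -0.02 to 0.07). The labels do not state a pairing, so the fits carry no block, and values with it are given beside SMC results whose call it changed.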

Additional observations from a re-analysis of the deposited data

Results flagged for a closer look

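The siKlf4 effect differed between the cell types, by the limma interaction over 12 libraries, in the following genes, with values as the log2 effect in SMCs minus that in PDGFR-β+ cells. Among HOX genes these were Hoxa2 (-0.81), Hoxa4 (-0.58), Hoxa7 (-0.88), Hoxb3 (-0.74), Hoxb6 (-0.68) and Hoxb7 (-0.94), together with the noncoding Hoxb3os (-0.73). Among Polycomb genes these were Bmi1 (-0.49), Cbx2 (-1.04), Cbx6 (-0.97), Cbx7 (-1.88), Ezh1 (-1.04), Rnf2 (-0.76) and, in the other direction, Phc3 (0.94). Kmt2a of the Trithorax list (-0.49) and the TALE cofactors Meis2 (-0.44) and Pknox2 (-0.45) were lower as well. With 1 library left out, Pknox2 was lost in 8 of 12 fits, Meis2 in 7, Hoxb3os in 6 and Hoxb6 in 9, and each was also lost under 2 to 4 other alternatives. Of the regional factors, Hand2 (-1.32), Nkx6-1 (-0.76), Six4 (-0.76) and Tcf21 (-1.39) were lower and Barx1 (0.90) and Tbx15 (0.56) higher. Klf4 itself differed by 1.19, with the deeper fall in PDGFR-β+ cells. Adjusted p ran from 1.25e-04 to 0.0428.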

How the results depend on the processing

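The 8 HOX genes that rose in PDGFR-β+ cells passed under every alternative run except a required log2 fold change of at least 1, which left 0 there and 0 higher and 0 lower in SMCs. In SMCs the single lower gene, Hoxa6, gave 0 with no filter, a minimum of 5 TPM, quantile normalization and the numbered libraries. In the single fit over 12 libraries Hoxa6 was lost as well, and Hoxa2 was lower instead. Leaving out 1 library gave 0 to 2 higher and 0 to 1 lower, the latter being Hoxa2 without Scr replicate 3, while Hoxa6 was lost in each. With a replicate block SMCs had 3 higher and 0 lower (Hoxa6 lost, Hoxb2 gained), and PDGFR-β+ cells 8 higher and 0 lower. The block changed no other HOX call. Between Scr groups 5 of 30 HOX genes were higher in SMCs with no filter, beside 3468 of all 26342 genes. Among these 5, Hoxd3 and Hoxd9 were listed at 0 in every Scr PDGFR-β+ library. Between siKlf4 groups 1 of 16 was higher, beside 3136 of all 13823 genes. Median-ratio scaling gave 1 of 14 HOX genes higher in the interaction, beside 2344 of all 13032 genes. Among genes that had not passed, the SMC effect turned to 0.0024 (Hoxb3), -0.049 (Hoxb6) and -0.082 (Hoxb7) in the numbered libraries and to -0.0040 for Hoxb6 under median-ratio scaling. With 1 library left out it ranged from -0.18 to 0.15 for Hoxb6 and from -0.10 to 0.18 for Hoxb7, and the interaction of Hoxb5 from -0.0099 to 0.24. Between siKlf4 groups the difference was -0.43 for Hoxa2, -0.32 for Hoxa7, -0.020 for Hoxb4 and 0.60 for Klf4. Over all genes, interaction calls were 43.9% higher, and 52.6% with median-ratio scaling. The causes were not tested. TPM carries no depth, so counting error at low HOX levels is unknown.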
